A study of Mus musculus with 9 samples.

Results

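The genes described here make up the glutathione and thioredoxin antioxidant systems of the mouse. They comprise the glutathione transferases, glutathione peroxidases, peroxiredoxins, thioredoxins and thioredoxin reductases, the enzymes that synthesise and reduce glutathione, the superoxide dismutases and catalase, and 4 genes of the NRF2 axis. They were chosen by gene symbol, with earlier results of these data known, and 58 of the 56748 genes in the count table carried such a symbol. Of these, 57 were protein-coding and 1, Gstm2-ps1, was a pseudogene. Polyadenylated RNA of cortical cells was sequenced in 9 libraries, all from wild-type (WT) mice of the strain C57BL/6J aged 2 to 3 months, with 3 biological replicates in each of 3 groups. Reactive cultures were grown from the cores of cortical lesions in medium with 10% fetal bovine serum, and each culture was taken whole, without a sort. Injured cortex and uninjured cortex were freshly dissociated cells, sorted so that debris, dead cells and neurons (positive for CD171 and negative for ACSA-2) were left out. The wounds were lancet stabs set in a grid. The sample labels give 1 day from wound to dissection and 6 days in culture. The design text gives 3 days for injured cortex, and for the cultures dissection at 24 h followed by 8 days in vitro, so no time is used here.

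Glutathione, the main small thiol of the cell, is built by glutamate-cysteine ligase (the catalytic subunit Gclc and the modifier Gclm) and by glutathione synthetase (Gss). Glutathione peroxidases spend it to reduce peroxides, glutathione transferases join it to electrophiles, and glutathione reductase (Gsr) restores it with NADPH. In the parallel system, thioredoxin reductases keep thioredoxins reduced, and these restore the peroxiredoxins, which break down hydrogen peroxide. Many of these genes are known targets of NRF2 (encoded by Nfe2l2), a transcription factor that binds antioxidant response elements and that KEAP1 marks for degradation. NRF2 is controlled mainly as a protein, so the level of its mRNA is no measure of its activity. In the brain, astrocytes are known for high glutathione content, and microglia and macrophages for the production of oxidants.

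Total counts per library were 16667883 to 24302770 in the cultures, 20389561 to 21135163 in injured cortex and 12205049 to 18577561 in uninjured cortex. The antioxidant genes took 1.90% to 2.09% of all counts in the cultures, 0.680% to 0.826% in injured cortex and 0.843% to 0.853% in uninjured cortex. Levels below are CPM, gene counts divided by the library total times its TMM factor (the trimmed mean of M values) and put on a per-1000000 scale. Most of the antioxidant sum in the cultures was 1 gene, Prdx1, at 17201 of 26629 CPM on average. Prdx1 averaged 1373 of 6859 CPM in injured cortex and 1083 of 6948 CPM in uninjured cortex. Changes are log2 fold changes ± SE from edgeR's quasi-likelihood test, with p-values adjusted over all 18093 genes tested (Benjamini-Hochberg). A gene was called at an adjusted p under 0.05. The 3 comparisons share libraries and are given side by side. Uninjured replicates 2 and 3 stood apart from the other libraries, with 182 and 151 CPM of reads at 1999 olfactory and vomeronasal receptor genes. Uninjured replicate 1 had 44.1 CPM there, the injured libraries 23.5 to 25.6 CPM and the cultures 14.4 to 16.3 CPM. Because of those reads, some results against uninjured cortex are also given without uninjured replicates 2 and 3. That removal leaves 1 uninjured library, so a call lost with it may reflect the missing replicates and does not by itself tie the change to those libraries. Cell type markers differed between the groups. The 8 astrocyte markers were all called lower in the cultures than in either cortex group. They summed to 93.1 to 164 CPM in the cultures, 2210.2 to 3746 CPM in injured cortex and 3825 to 6824 CPM in uninjured cortex. The 6 microglia markers were likewise all lower in the cultures. They summed to 1198 to 1926 CPM there, against 4199.9 to 12471 CPM in injured cortex and 7547 to 11965 CPM in uninjured cortex. The 6 oligodendrocyte markers summed to 363 to 732 CPM in the cultures, 11033 to 15841 CPM in injured cortex and 17469 to 30986 CPM in uninjured cortex. The 6 macrophage and monocyte markers summed to 39921 to 47543 CPM in the cultures, 1752 to 7944 CPM in injured cortex and 477 to 569 CPM in uninjured cortex. Most of each sum was Lyz2, at 43042 CPM on average in the cultures, 4455 CPM in injured cortex and 488 CPM in uninjured cortex. Against injured cortex 3 of the 6 were called higher in the cultures and 2 lower: Ccr2 averaged 1.59 CPM in the cultures and 132 CPM in injured cortex, and Ly6c2 1.94 CPM in the cultures and 388 CPM in injured cortex. Against uninjured cortex 4 were higher in the cultures and 1, Ccr2, was lower. Of the 6, 5 were called higher in injured than in uninjured cortex, all but Mrc1. Fibroblast markers summed to 214 to 529 CPM in the cultures, 47.2 to 143 CPM in injured cortex and 28.9 to 39.4 CPM in uninjured cortex. Of the 6, 5 were called higher in the cultures in both comparisons. The other, Pdgfra, was called lower in the cultures than in injured cortex and was not called against uninjured cortex. Mural cell markers summed to 3199 to 3731 CPM in the cultures, 486 to 527 CPM in injured cortex and 846 to 1573 CPM in uninjured cortex. That sum was mostly Acta2 in the cultures (3419 CPM on average, against 40.3 CPM in injured cortex and 73.5 CPM in uninjured cortex). The mural markers Vtn, Kcnj8, Higd1b and Rgs5, 4 of the 6, were called lower in the cultures in both comparisons. Acta2 was called higher in the cultures in both, and Pdgfrb only against injured cortex. Of the 6 mural markers, 5 were lower in injured than in uninjured cortex. The 5 erythrocyte markers were all called lower in the cultures in both comparisons, and summed to 3.90 to 9.26 CPM in the cultures, 1265 to 2616 CPM in injured cortex and 2986 to 3979 CPM in uninjured cortex. In injured against uninjured cortex, neutrophil markers summed to 266 to 357 CPM against 30.4 to 107 CPM, and T cell markers to 35.3 to 127 CPM against 2.70 to 11.6 CPM. No marker of these lists was at 0 throughout a group. In bulk libraries, fewer cells of a type and less RNA per cell cannot be told apart. The part of cell makeup in the results below was not tested.

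Of the 58 antioxidant genes, 50 had enough counts to be tested. In the cultures, 27 of them were called higher and 10 lower than in injured cortex (54% and 20% of those tested), where 20.0% of all genes tested were called higher and 30.1% lower, 50.1% in either direction. Against uninjured cortex, 28 were higher and 10 lower in the cultures (56% and 20%), beside 27.5% and 33.1% of all genes, 60.5% in either direction. In that comparison, fewer members and fewer of all genes were called in each direction without uninjured replicates 2 and 3. The members' median log2 fold change was 0.74 in the cultures against injured cortex and 0.86 against uninjured cortex, and the medians of all genes tested were -0.19 and -0.17. In injured cortex against uninjured cortex, 10 members were higher and 5 lower (20% and 10%), beside 8.99% and 2.87% of all genes (11.9% in either direction). The members' median was 0.07, against 0.00 for all genes. At least a 2-fold change was found for 20 of the genes higher and 5 of those lower in the cultures against injured cortex, for 23 and 7 against uninjured cortex, and for 8 and 3 in injured against uninjured cortex. In both culture comparisons, all 5 glutathione peroxidase and all 3 microsomal transferase genes tested were called higher. Soluble transferases, peroxiredoxins and superoxide dismutases with catalase had calls in both directions. The injury counts depended on which libraries entered. They were 1 higher and 1 lower without uninjured replicates 2 and 3, 4 and 2 without injured replicate 1, and 5 and 2 without uninjured replicate 2. Without uninjured replicate 3 they were 5 and 3, and without injured replicate 3 they were 13 and 9. Those called lower were 2 without injured replicate 2 and 3 without culture replicate 3. Against injured cortex, 6 members were lower in the cultures without culture replicate 3.

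**Figure D1:**
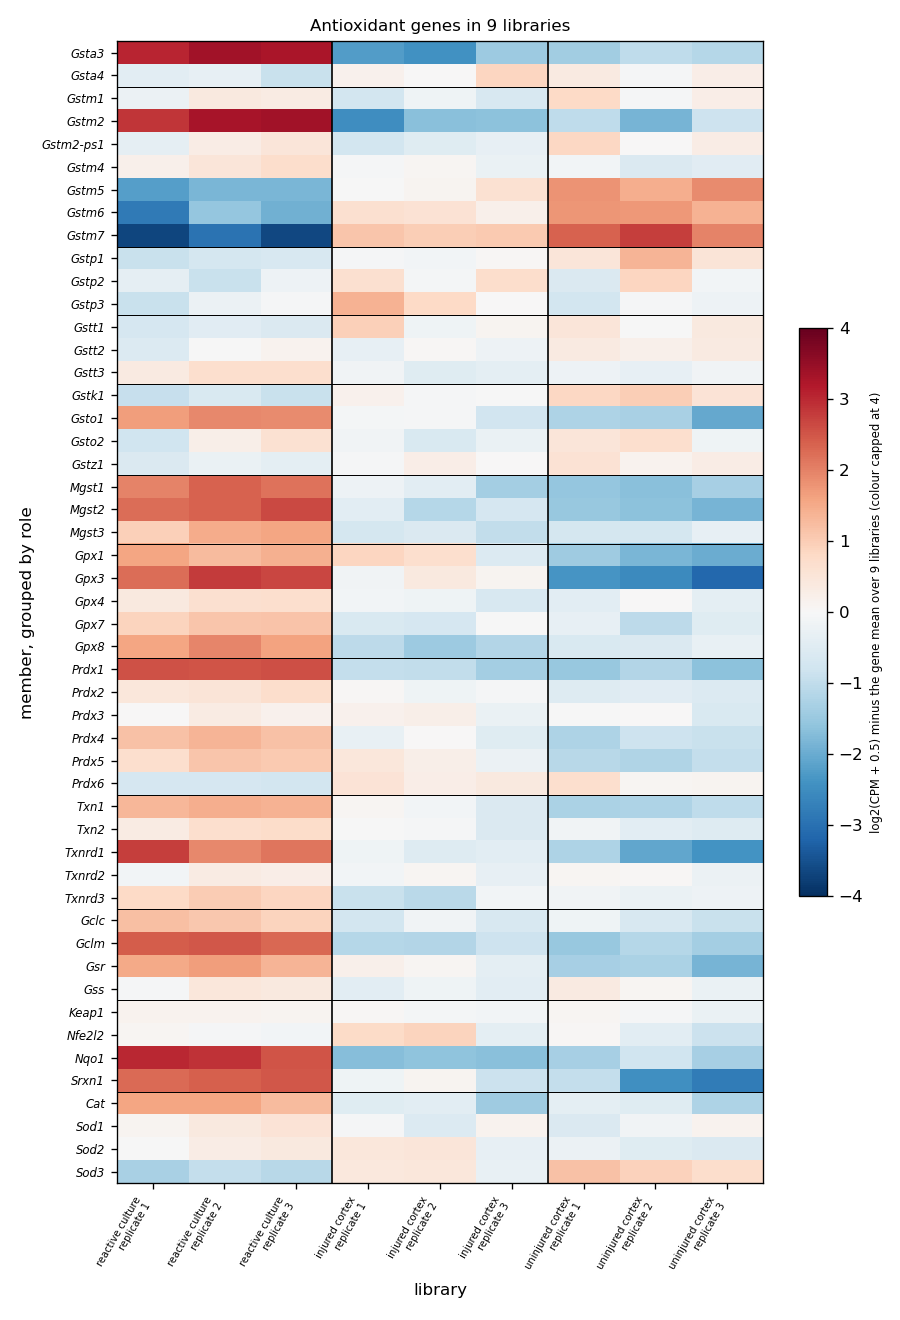
Heat map of the 50 tested antioxidant genes (rows, grouped by role) in the 9 libraries (columns: cultures, injured cortex, uninjured cortex). Colour is log2(CPM + 0.5) minus the mean of that gene over the 9 libraries, and black lines separate roles and groups. Gsta3, Gstm2, Nqo1, Gclm and Prdx1 are high in all 3 cultures, and Gstm5, Gstm6 and Gstm7 are low in all 3 and high in all 3 uninjured libraries.

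**Figure D2:**
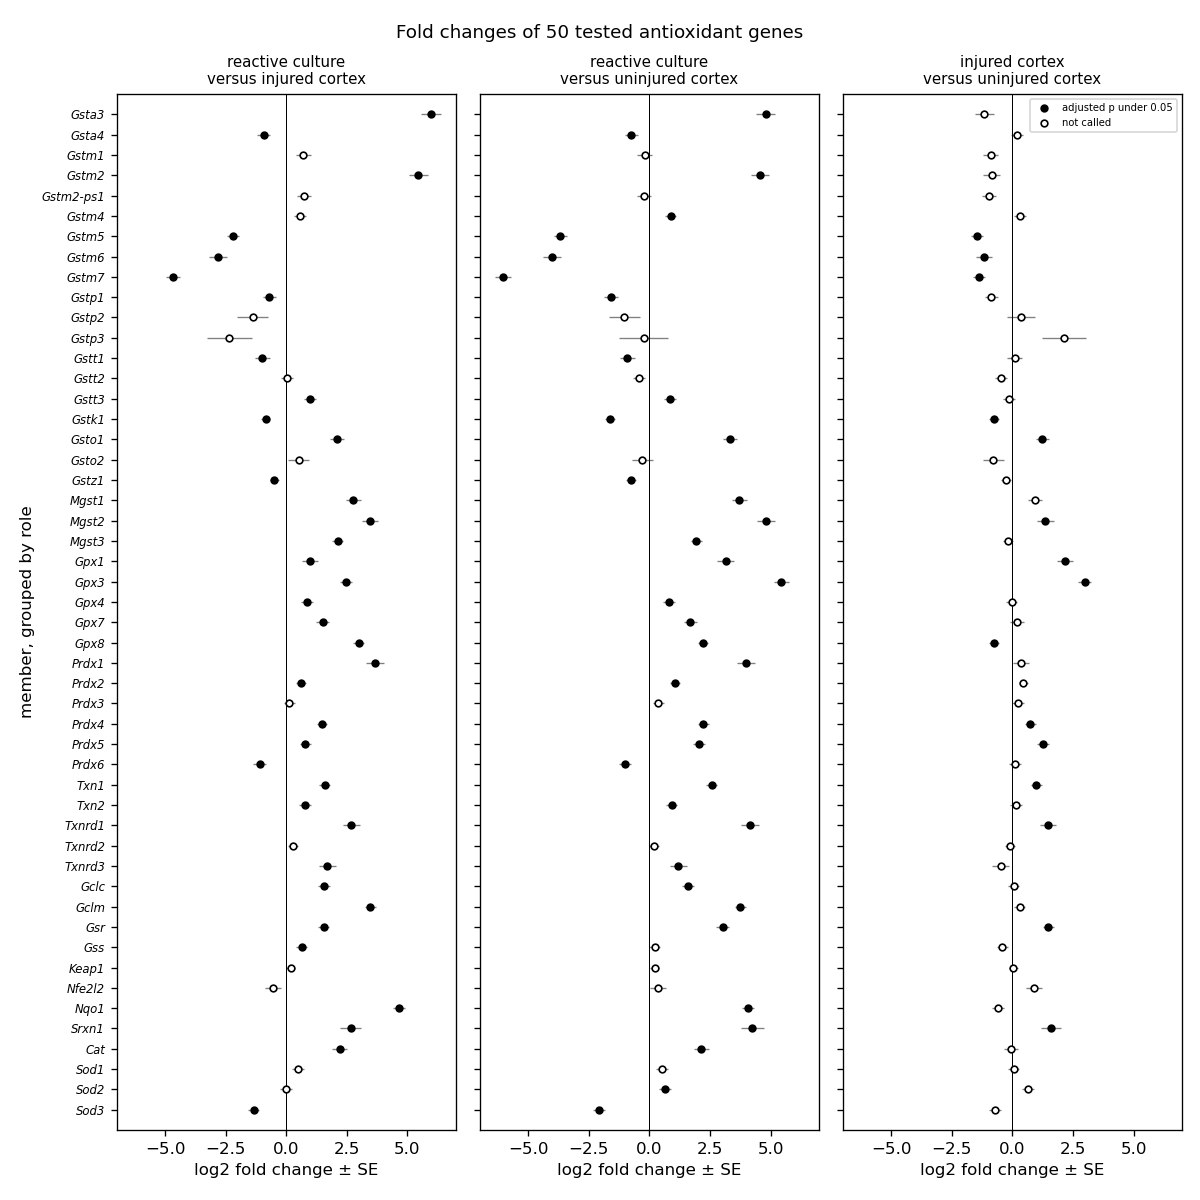
Log2 fold changes (points) ± SE (bars) of the same 50 genes in the 3 comparisons, with positive values higher in the first-named group. Filled points passed an adjusted p of 0.05: 27 higher and 10 lower in cultures against injured cortex, 28 and 10 in cultures against uninjured cortex, and 10 and 5 in injured against uninjured cortex.

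Within the NRF2 axis, the classical target genes Nqo1 and Srxn1 were much higher in the cultures, while the mRNAs of NRF2 itself and of its inhibitor KEAP1 were not called in any comparison. Nqo1, a quinone reductase often used as a readout of NRF2, had 123, 112 and 86.3 CPM in the cultures, 4.10, 4.44 and 4.21 CPM in injured cortex and 5.46, 8.26 and 5.48 CPM in uninjured cortex. All 3 cultures lay far above every cortex library, by a log2 fold change of 4.65 ± 0.25 (adjusted p = 1.08e-07) against injured cortex and 4.06 ± 0.25 (adjusted p = 1.05e-07) against uninjured cortex. Injured cortex lay just below uninjured cortex, without a call (-0.59 ± 0.23, adjusted p = 0.119). Srxn1, the sulfiredoxin that repairs overoxidised peroxiredoxins, had 396, 436 and 468 CPM in the cultures, 73.6, 88.5 and 44.8 CPM in injured cortex and 42.4, 14.5 and 11.6 CPM in uninjured cortex. The 3 groups did not overlap, with the cultures highest: the changes were 2.65 ± 0.44 (adjusted p = 0.000421) against injured cortex and 4.25 ± 0.47 (adjusted p = 1.28e-05) against uninjured cortex. Between injured and uninjured cortex Srxn1 was also called higher, at 1.59 ± 0.43 (adjusted p = 0.031). That call was lost on leaving out any of culture replicates 1 and 3, injured replicates 1 and 2 and uninjured replicates 2 and 3 (adjusted p from 0.0509 to 0.136). Without uninjured replicates 2 and 3 together the change was 0.69 (adjusted p = 0.507).

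Nfe2l2 had 219.9, 202 and 193 CPM in the cultures, 355, 386 and 157 CPM in injured cortex and 213, 155 and 115 CPM in uninjured cortex. Injured replicates 1 and 2 were the highest of all 9 libraries and injured replicate 3 lay below every culture, so the groups overlapped. Its changes were -0.55 ± 0.33 (adjusted p = 0.179) in cultures against injured cortex, 0.35 ± 0.33 (adjusted p = 0.367) in cultures against uninjured cortex and 0.90 ± 0.33 (adjusted p = 0.101) in injured against uninjured cortex. Without injured replicate 3, Nfe2l2 was called lower in the cultures than in injured cortex (-0.85, adjusted p = 0.0121) and higher in injured than in uninjured cortex (1.19, adjusted p = 0.00392). Keap1 had 32.0, 31.7 and 31.0 CPM in the cultures, 29.7, 27.0 and 26.8 CPM in injured cortex and 30.3, 27.6 and 23.6 CPM in uninjured cortex, a range of less than 1.5-fold over all libraries. Its fold changes lay between 0.04 and 0.22 on the log2 scale, with adjusted p from 0.314 to 0.927. Among 9 partners and regulators of NRF2, the repressors Bach1 and Bach2, which compete at the same elements, were lower in the cultures. Bach1 changed by -2.09 against injured and -1.34 against uninjured cortex (adjusted p = 4.5e-05 and 0.000718), and Bach2 by -3.49 and -3.90 (adjusted p = 1.52e-05 and 4.16e-06). Nfe2l1, a relative of NRF2, was higher in the cultures by 1.11 and 1.62 (adjusted p = 0.00476 and 0.000313). Maff, a small MAF partner, was higher than in uninjured cortex in the cultures (1.37, adjusted p = 0.0096) and in injured cortex (1.66, adjusted p = 0.0166). The Maff calls were lost without uninjured replicates 2 and 3 (adjusted p = 0.284 and 0.41), and the second also without uninjured replicate 2 or 3 (0.0704 to 0.0847). In all, 1 of the 9 was called higher and 2 lower against injured cortex, beside 20.0% and 30.1% of all genes tested. Against uninjured cortex 2 were higher and 2 lower, beside 27.5% and 33.1%. In both culture comparisons the list was thus called less often, in either direction, than all genes. Between injured and uninjured cortex 1 was higher and 0 lower, beside 8.99% and 2.87%.

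The core letters of the antioxidant response element, TGACNNNGC, were searched for on both strands in RefSeq promoter windows of the build GRCm38.p6, which run from 250 bases before to 50 bases after a gene's start and were available for 50 of the 58 genes. At least 1 window with the core was found for 10 of these 50 genes (20%), beside 3781 of 27025 genes over the genome (14%). Of members higher in the cultures than in injured cortex 6 of 25 had it (24%), and of members lower 2 of 7 (28.6%). The windows shown belong to 5 genes that were higher in the cultures (Gclm, Prdx1, Txnrd1, Gsta3 and Srxn1) and 2 that were lower (Gstm5 and Gstm7), so that the core can be seen beside genes of either direction. They are written in the direction of the gene, and the capitals mark the core or, where it lies on the opposite strand, its reverse complement.
Gclm, chr3:122245307-122245606, forward strand: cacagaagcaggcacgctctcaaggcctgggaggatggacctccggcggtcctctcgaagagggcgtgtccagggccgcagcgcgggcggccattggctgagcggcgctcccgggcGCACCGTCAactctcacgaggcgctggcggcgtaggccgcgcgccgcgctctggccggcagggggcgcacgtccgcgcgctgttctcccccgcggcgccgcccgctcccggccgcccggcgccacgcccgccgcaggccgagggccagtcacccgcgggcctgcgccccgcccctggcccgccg
Prdx1, chr4:116685349-116685648, forward strand: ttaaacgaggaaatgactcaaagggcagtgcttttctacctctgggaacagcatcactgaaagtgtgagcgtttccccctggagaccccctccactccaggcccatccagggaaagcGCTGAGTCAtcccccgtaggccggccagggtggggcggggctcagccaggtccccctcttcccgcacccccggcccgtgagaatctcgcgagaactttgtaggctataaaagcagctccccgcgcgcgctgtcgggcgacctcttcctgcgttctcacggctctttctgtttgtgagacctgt
Txnrd1, chr10:82858956-82859255, forward strand: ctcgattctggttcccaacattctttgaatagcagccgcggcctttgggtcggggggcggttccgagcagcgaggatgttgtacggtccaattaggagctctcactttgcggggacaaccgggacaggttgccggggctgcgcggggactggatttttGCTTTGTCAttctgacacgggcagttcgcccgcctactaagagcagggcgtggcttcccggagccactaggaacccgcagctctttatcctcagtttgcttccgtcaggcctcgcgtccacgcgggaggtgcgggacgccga
Gsta3, chr1:21240335-21240634, forward strand: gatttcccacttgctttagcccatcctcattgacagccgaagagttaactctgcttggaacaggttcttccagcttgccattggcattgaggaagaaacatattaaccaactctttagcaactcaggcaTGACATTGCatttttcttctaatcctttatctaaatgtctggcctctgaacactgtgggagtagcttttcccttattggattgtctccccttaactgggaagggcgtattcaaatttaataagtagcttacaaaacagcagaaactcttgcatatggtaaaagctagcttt
Srxn1, chr2:152105274-152105573, forward strand: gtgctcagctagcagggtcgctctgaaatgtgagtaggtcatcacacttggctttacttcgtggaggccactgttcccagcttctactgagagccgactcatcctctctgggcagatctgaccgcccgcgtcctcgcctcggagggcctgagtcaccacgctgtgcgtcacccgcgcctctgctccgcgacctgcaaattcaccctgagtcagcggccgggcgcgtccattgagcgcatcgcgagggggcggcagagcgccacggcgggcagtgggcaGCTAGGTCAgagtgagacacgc
Gstm5, chr3:107895604-107895903, forward strand: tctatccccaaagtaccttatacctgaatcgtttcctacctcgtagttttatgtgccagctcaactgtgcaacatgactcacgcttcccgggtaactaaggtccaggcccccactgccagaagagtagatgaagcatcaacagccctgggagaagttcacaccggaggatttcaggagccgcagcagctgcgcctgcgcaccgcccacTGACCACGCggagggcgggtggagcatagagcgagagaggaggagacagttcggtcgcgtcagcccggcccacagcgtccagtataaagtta
Gstm7, chr3:107931565-107931864, reverse strand: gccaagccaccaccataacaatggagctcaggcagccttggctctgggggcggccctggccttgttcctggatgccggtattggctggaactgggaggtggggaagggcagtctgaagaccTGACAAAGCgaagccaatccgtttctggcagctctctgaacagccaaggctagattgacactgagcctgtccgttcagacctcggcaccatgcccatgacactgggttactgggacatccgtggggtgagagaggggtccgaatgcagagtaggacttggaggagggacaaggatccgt
The sixth gene with the core among those higher in the cultures was Mgst1, and Nfe2l2 and Sod1 held it among genes not called in that comparison. The Nqo1 window held no match to these letters. A match in a window describes the sequence and shows no binding.

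Gclm, Gclc and Gsr were higher in the cultures in both comparisons, Gss was called higher only against injured cortex, and Gsr was also higher in injured than in uninjured cortex. Gclm had 729, 753 and 668 CPM in the cultures, 60.6, 59.5 and 75.3 CPM in injured cortex and 46.7, 60.6 and 51.8 CPM in uninjured cortex. The cultures stood 11.0-fold above injured and 13.5-fold above uninjured cortex, which overlapped each other: the changes were 3.46 ± 0.23 (adjusted p = 3.51e-07) against injured cortex, 3.76 ± 0.24 (adjusted p = 1.3e-07) against uninjured cortex and 0.30 ± 0.21 (adjusted p = 0.411) in injured against uninjured cortex. Gclc, the catalytic partner, had 137, 127 and 110.4 CPM in the cultures, 35.2, 53.8 and 37.7 CPM in injured cortex and 52.9, 38.1 and 31.4 CPM in uninjured cortex. The cultures again lay above all cortex libraries, but by less than for Gclm, with 1.56 ± 0.24 (adjusted p = 0.000274) and 1.61 ± 0.24 (adjusted p = 0.000149). Injured against uninjured cortex gave 0.05 ± 0.24 (adjusted p = 0.926). Gss, which adds the final glycine, had 45.1, 64.1 and 61.4 CPM in the cultures, 34.3, 41.5 and 34.8 CPM in injured cortex and 59.0, 49.1 and 38.9 CPM in uninjured cortex. The cultures lay above injured cortex and overlapped uninjured cortex, with 0.63 ± 0.22 (adjusted p = 0.0296), 0.21 ± 0.21 (adjusted p = 0.401) and, for injured against uninjured cortex, -0.41 ± 0.22 (adjusted p = 0.252). The call against injured cortex was lost without culture replicate 2 or 3 or injured replicate 1 or 3 (adjusted p from 0.0578 to 0.117). Gsr had 209, 231 and 186 CPM in the cultures, 83.6, 76.6 and 55.3 CPM in injured cortex and 28.3, 29.6 and 19.3 CPM in uninjured cortex. Its 3 groups were fully separate, in the order cultures, injured, uninjured, with 1.54 ± 0.23 (adjusted p = 0.000221) in cultures against injured cortex, 3.02 ± 0.25 (adjusted p = 1.06e-06) in cultures against uninjured cortex and 1.48 ± 0.24 (adjusted p = 0.00162) in injured against uninjured cortex. Without uninjured replicates 2 and 3 the injury change of Gsr was 1.33 (adjusted p = 0.0904).

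**Figure D3:**
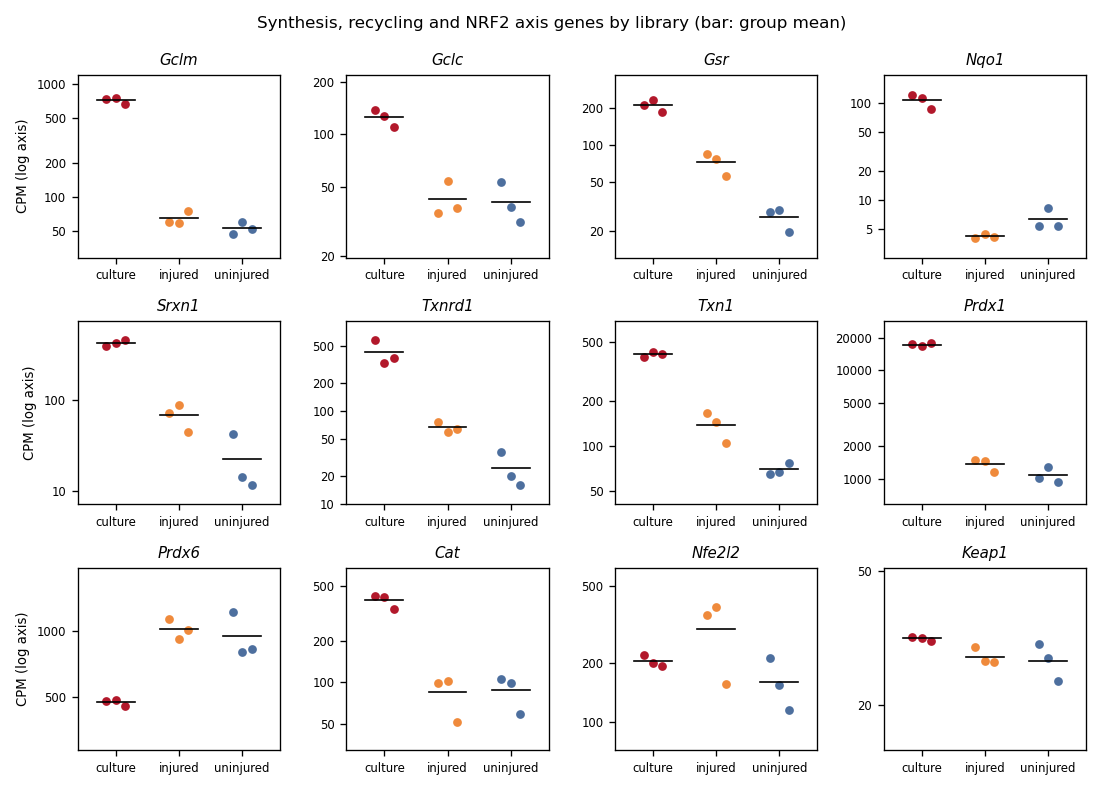
Levels (CPM, log axis) of 12 genes of synthesis, recycling and the NRF2 axis in each library: cultures, injured cortex and uninjured cortex from left to right, with a point for each library and a bar for the group mean. Gclm, Nqo1, Prdx1 and Cat are high in the cultures. The cortex groups overlap for Gclm, Prdx1 and Cat, and for Nqo1 injured cortex lies just below uninjured cortex. Srxn1, Txnrd1, Txn1 and Gsr descend over the 3 groups, Prdx6 is low in the cultures, and Nfe2l2 and Keap1 show no call.

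Of the 5 thioredoxin and thioredoxin reductase genes, 4 were called higher in the cultures in both comparisons. Txnrd1, the cytosolic reductase, had 582, 326 and 376 CPM in the cultures, 75.4, 59.6 and 64.2 CPM in injured cortex and 36.2, 19.9 and 15.9 CPM in uninjured cortex. No group overlapped another: the changes were 2.69 ± 0.33 (adjusted p = 4.61e-05) against injured cortex, 4.16 ± 0.36 (adjusted p = 1.46e-06) against uninjured cortex and 1.47 ± 0.32 (adjusted p = 0.0113) in injured against uninjured cortex. Txn1, the cytosolic thioredoxin that it reduces, had 398, 432 and 414 CPM in the cultures, 166, 145 and 104 CPM in injured cortex and 65.0, 66.8 and 77.0 CPM in uninjured cortex. The order of groups was the same, with 1.58 ± 0.22 (adjusted p = 0.000124), 2.58 ± 0.23 (adjusted p = 2.12e-06) and 0.99 ± 0.22 (adjusted p = 0.0122) in those comparisons. Without uninjured replicates 2 and 3, which leaves 1 uninjured library, the injury change was 0.86 for Txnrd1 and 1.08 for Txn1. Neither gene kept its injury call in that fit. The injury calls of both genes were also lost without injured replicate 1 (adjusted p = 0.0578 for Txnrd1 and 0.1 for Txn1). Both were lost again without uninjured replicate 2 (0.0668 and 0.0676). The injury call of Txnrd1 was also lost without uninjured replicate 3 (0.0543). The mitochondrial thioredoxin Txn2 changed less, by 0.77 against injured and 0.91 against uninjured cortex (adjusted p = 0.0164 and 0.00524). The first of these was lost without culture replicate 2 or 3 (adjusted p = 0.0605 and 0.0667), and the second without uninjured replicates 2 and 3 (0.169). Its reductase Txnrd2 was not called in any comparison, with changes from -0.08 to 0.29. Txnrd3, a reductase with a glutaredoxin domain, was low, at 8.45 ± 0.700 CPM in the cultures, 2.61 ± 1.19 CPM in injured cortex and 3.67 ± 0.179 CPM in uninjured cortex (SD, n = 3), and was higher in the cultures by 1.68 and 1.20 (adjusted p = 0.00184 and 0.0096; 0.138 for the second without uninjured replicates 2 and 3).

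Peroxiredoxins differed in direction: Prdx1, Prdx2, Prdx4 and Prdx5 were higher in the cultures, Prdx6 was lower, and Prdx3 was not called. Prdx1, a cytosolic peroxiredoxin and a known NRF2 target, had 17308, 16608 and 17688 CPM in the cultures, 1499.8, 1466 and 1153 CPM in injured cortex and 1015, 1294 and 942 CPM in uninjured cortex. Every culture lay more than 10-fold above every cortex library. The changes were 3.65 ± 0.36 (adjusted p = 8.24e-06) against injured cortex and 3.99 ± 0.37 (adjusted p = 2.7e-06) against uninjured cortex, with 0.34 ± 0.33 (adjusted p = 0.553) in injured against uninjured cortex. Per kilobase of exon, its mean level was 5653 ± 180 CPM in the cultures, 451 ± 62.9 CPM in injured cortex and 356 ± 61.0 CPM in uninjured cortex (SD, n = 3), the first of the 58 genes in the cultures and in injured cortex and the fourth in uninjured cortex. Prdx6, which uses glutathione rather than thioredoxin and is known as an astrocyte peroxiredoxin in brain, had 479.5, 482 and 455 CPM in the cultures, 1124, 917 and 1002 CPM in injured cortex and 1212, 799 and 826 CPM in uninjured cortex. The cultures lay below all cortex libraries, with -1.10 ± 0.26 (adjusted p = 0.00382) and -1.00 ± 0.26 (adjusted p = 0.00508). Injured against uninjured cortex gave 0.10 ± 0.25 (adjusted p = 0.845). Prdx5, found in mitochondria and peroxisomes, had 403, 550.4 and 521 CPM in the cultures, 343, 297 and 213 CPM in injured cortex and 116, 109 and 129 CPM in uninjured cortex. Its groups stepped down from cultures to injured to uninjured cortex, with 0.79 ± 0.24 (adjusted p = 0.0168), 2.06 ± 0.25 (adjusted p = 2.43e-05) and, for injured against uninjured cortex, 1.27 ± 0.24 (adjusted p = 0.0052). The first call was lost without culture replicate 2 or 3 (adjusted p = 0.0697 and 0.058) and the injury call without uninjured replicates 2 and 3 (1.28, adjusted p = 0.154). Prdx4, the peroxiredoxin of the endoplasmic reticulum, was higher in the cultures by 1.48 and 2.22 (adjusted p = 0.00015 and 4.41e-06) and in injured cortex by 0.75 (adjusted p = 0.0394). The last call was lost on leaving out any library but injured replicate 3 (adjusted p from 0.0535 to 0.135) and with DESeq2 or upper-quartile scaling (0.0617 and 0.0705). Prdx2, known to be abundant in neurons and red cells, was higher in the cultures by 0.61 and 1.06 (adjusted p = 0.0221 and 0.000682), the first lost without culture replicate 2 or 3 or injured replicate 2 (adjusted p from 0.0581 to 0.0904). The erythrocyte markers given above were lower in the cultures in both comparisons. The mitochondrial Prdx3 changed by 0.13, 0.36 and 0.23 (adjusted p from 0.188 to 0.657).

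All 5 glutathione peroxidase genes tested were called higher in the cultures in both comparisons, and Gpx1 and Gpx3 were higher in injured than in uninjured cortex. Gpx3, the secreted plasma form, had 99.9, 146 and 134 CPM in the cultures, 18.8, 27.5 and 22.4 CPM in injured cortex and 3.64, 3.10 and 1.89 CPM in uninjured cortex. The groups were far apart, each library of injured cortex lying above each of uninjured cortex and below each culture, with 2.47 ± 0.26 (adjusted p = 1.29e-05), 5.45 ± 0.30 (adjusted p = 5.44e-08) and, for injured against uninjured cortex, 2.98 ± 0.28 (adjusted p = 5.29e-05). Gpx3 and Gstm5 were the only members whose injury call held under every alternative tried, the removal of uninjured replicates 2 and 3 included (2.64 for Gpx3, adjusted p = 0.0108). Gpx1, the main cytosolic peroxidase, had 574, 465 and 516 CPM in the cultures, 348, 309.6 and 133 CPM in injured cortex and 71.9, 53.8 and 48.8 CPM in uninjured cortex. Injured replicate 3 was lower than the other injured libraries, yet the groups did not overlap. The changes were 0.98 ± 0.32 (adjusted p = 0.0254), 3.16 ± 0.35 (adjusted p = 1.19e-05) and, for injured against uninjured cortex, 2.18 ± 0.34 (adjusted p = 0.00133). The call against injured cortex was lost without culture replicate 1 or 3 (adjusted p = 0.0784 and 0.0605), and the injury call without uninjured replicates 2 and 3 (1.86, adjusted p = 0.115). Gpx8, a membrane protein of the endoplasmic reticulum, had 138, 178 and 141 CPM in the cultures, 21.6, 16.3 and 19.8 CPM in injured cortex and 29.5, 30.6 and 37.2 CPM in uninjured cortex. It was the reverse of Gpx1 in the cortex, with injured below uninjured: the changes were 2.98 ± 0.21 (adjusted p = 5.83e-07), 2.23 ± 0.21 (adjusted p = 2.77e-06) and -0.75 ± 0.20 (adjusted p = 0.0304). The injury call of Gpx8 was lost without culture replicate 3, injured replicate 1 or 2, or uninjured replicate 2 or 3 (adjusted p from 0.0562 to 0.116; 0.382 without both of the last). Gpx4, which reduces lipid peroxides and guards against ferroptosis, had 560.3, 668 and 691 CPM in the cultures, 402, 377 and 277 CPM in injured cortex and 320.5, 430.4 and 331 CPM in uninjured cortex. The cultures lay above every cortex library while the cortex groups overlapped, with 0.86 ± 0.24 (adjusted p = 0.0116), 0.83 ± 0.24 (adjusted p = 0.0113; 0.07 without uninjured replicates 2 and 3) and -0.04 ± 0.24 (adjusted p = 0.946). Of its 50-base words 34.7% also occur in another gene, mostly pseudogenes, so its count is uncertain. Gpx7, also of the endoplasmic reticulum, was higher in the cultures by 1.50 and 1.69 (adjusted p = 0.000869 and 0.000273).

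**Figure D4:**
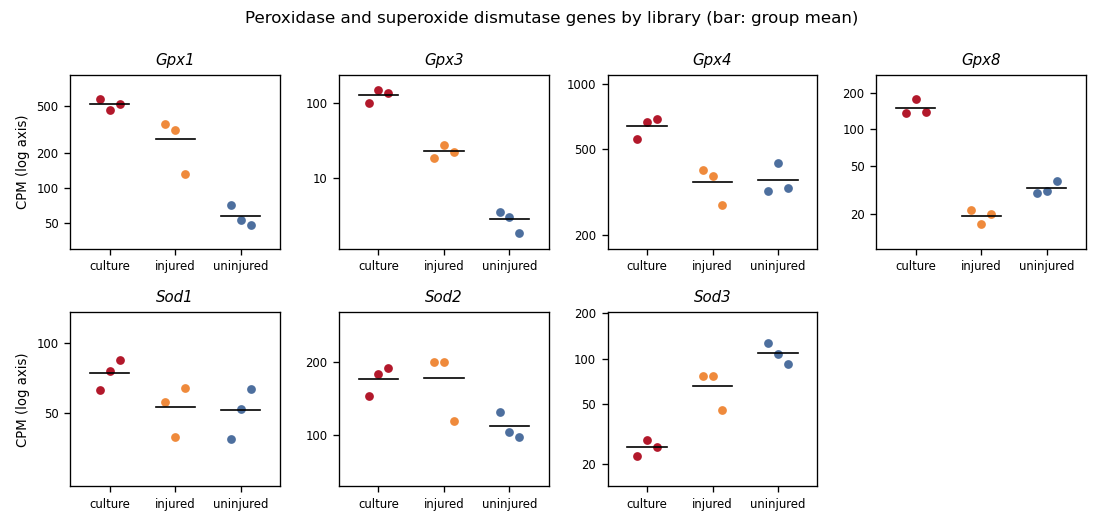
Levels (CPM, log axis) of glutathione peroxidase and superoxide dismutase genes in each library: cultures, injured cortex and uninjured cortex from left to right, with a point for each library and a bar for the group mean. Gpx1 and Gpx3 step down over the 3 groups, Gpx8 is lowest in injured cortex, and Sod3 is lowest in the cultures and highest in uninjured cortex.

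Among superoxide dismutases, which turn superoxide into hydrogen peroxide, the extracellular form Sod3 was lower in the cultures and the intracellular forms changed little. Sod3 had 22.7, 29.0 and 26.0 CPM in the cultures, 76.1, 76.8 and 45.8 CPM in injured cortex and 127, 108 and 92.8 CPM in uninjured cortex. The groups did not overlap, with -1.35 ± 0.24 (adjusted p = 0.000623), -2.07 ± 0.24 (adjusted p = 1.84e-05) and, for injured against uninjured cortex, -0.72 ± 0.23 (adjusted p = 0.0662). Sod1, the cytosolic form, had 63.0, 75.6 and 84.5 CPM in the cultures, 55.6, 39.4 and 64.2 CPM in injured cortex and 38.8, 52.0 and 63.2 CPM in uninjured cortex. The groups overlapped and no comparison was called, with 0.49 ± 0.24 (adjusted p = 0.111), 0.53 ± 0.24 (adjusted p = 0.073) and 0.05 ± 0.24 (adjusted p = 0.927). Sod2, the mitochondrial form, had 145, 179.6 and 189 CPM in the cultures, 200.2, 202 and 115 CPM in injured cortex and 125, 103 and 97.9 CPM in uninjured cortex. The cultures lay above uninjured cortex (0.66 ± 0.25, adjusted p = 0.0365) and within the range of injured cortex (-0.01 ± 0.25, adjusted p = 0.981), and injured against uninjured cortex gave 0.66 ± 0.25 (adjusted p = 0.107). The call of Sod2 against uninjured cortex was lost with every other scaling tried (adjusted p from 0.0514 to 0.108), on leaving out any of culture replicates 2 and 3, injured replicate 1 and uninjured replicates 2 and 3 (from 0.0579 to 0.114) and without the last 2 together (0.39). Without injured replicate 3, Sod2 was called higher in injured than in uninjured cortex (0.87, adjusted p = 0.00824). Of its 50-base words 21% occur in another gene. Catalase (Cat), the peroxisomal enzyme that breaks down hydrogen peroxide, had 422, 414 and 339 CPM in the cultures, 99.9, 103 and 51.8 CPM in injured cortex and 106, 99.2 and 59.6 CPM in uninjured cortex. Every culture exceeded every cortex library and the cortex groups overlapped, with 2.20 ± 0.31 (adjusted p = 0.000121), 2.15 ± 0.31 (adjusted p = 9.66e-05) and -0.06 ± 0.30 (adjusted p = 0.928).

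In cultures against injured cortex, glutathione transferases of the alpha and mu classes held both the largest increases, Gsta3 and Gstm2, and the largest decreases, Gstm7 and Gstm6, among the 50 tested genes. Gsta3, an alpha class enzyme, had 35.1, 44.3 and 41.6 CPM in the cultures, 0.424, 0.314 and 1.09 CPM in injured cortex and 1.16, 1.66 and 1.46 CPM in uninjured cortex. It was near the detection floor in injured cortex and well above it in the cultures, with 5.97 ± 0.42 (adjusted p = 4.66e-07), 4.81 ± 0.39 (adjusted p = 9.19e-07) and, for injured against uninjured cortex, -1.16 ± 0.40 (adjusted p = 0.0817). Without injured replicate 3, the highest injured library, Gsta3 was called lower in injured than in uninjured cortex (-1.95, adjusted p = 0.00195). Gstm2, of the mu class, had 59.0, 79.9 and 83.7 CPM in the cultures, 0.942, 2.04 and 2.11 CPM in injured cortex and 3.53, 1.75 and 4.08 CPM in uninjured cortex. It too was far higher in every culture than in any cortex library, with 5.44 ± 0.39 (adjusted p = 6.05e-07) against injured cortex, 4.58 ± 0.37 (adjusted p = 1.03e-06) against uninjured cortex and -0.86 ± 0.36 (adjusted p = 0.153) in injured against uninjured cortex. Gsta4, which acts on lipid aldehydes such as hydroxynonenal, went the other way: it was lower in the cultures, at -0.94 and -0.75 (adjusted p = 0.0112 and 0.0262), calls that were lost without culture replicate 3 (0.0587 and 0.118). The second was also lost without culture replicate 1, uninjured replicate 1 or uninjured replicate 3 (from 0.0544 to 0.079) and without uninjured replicates 2 and 3 (0.0784).

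The mu class genes other than the pseudogene Gstm2-ps1, which lies on chromosome 5, are on mouse chromosome 3, and their calls went in both directions. Gstm7 had 1.84, 3.33 and 1.88 CPM in the cultures, 63.5, 58.1 and 61.0 CPM in injured cortex and 152, 202 and 116 CPM in uninjured cortex. It showed the steepest fall of the tested members in both culture comparisons, with separate groups in the order opposite to that of Gsr and Txnrd1: -4.68 ± 0.31 (adjusted p = 3.02e-07), -6.05 ± 0.32 (adjusted p = 4.48e-08) and, for injured against uninjured cortex, -1.37 ± 0.26 (adjusted p = 0.0045). Gstm5 had 46.7, 60.9 and 60.6 CPM in the cultures, 215, 231 and 329.8 CPM in injured cortex and 756, 588 and 796 CPM in uninjured cortex. The order was the same, with -2.20 ± 0.26 (adjusted p = 3.05e-05), -3.67 ± 0.28 (adjusted p = 5.14e-07) and -1.46 ± 0.25 (adjusted p = 0.00272); per kilobase of exon it ranked second of the 58 genes in uninjured cortex, sixth in injured cortex and 26th in the cultures. Gstm6 had 0.674, 2.35 and 1.72 CPM in the cultures, 12.7, 12.1 and 9.17 CPM in injured cortex and 28.1, 27.5 and 21.6 CPM in uninjured cortex. It was the least abundant of these genes and fell in step, with -2.83 ± 0.38 (adjusted p = 8.05e-05), -4.02 ± 0.39 (adjusted p = 3.93e-06) and -1.19 ± 0.34 (adjusted p = 0.0387). Without uninjured replicates 2 and 3 the injury changes were -1.56 for Gstm5 (adjusted p = 0.037), -1.34 for Gstm7 (adjusted p = 0.0565) and -1.33 for Gstm6 (adjusted p = 0.224). The injury call of Gstm6 was also lost on leaving out culture replicate 3, injured replicate 1 or 2 or any uninjured library (from 0.0601 to 0.118). Gstm1, the most abundant of the 58 genes per kilobase in uninjured cortex (689 ± 211 CPM per kilobase, against 602 ± 134 in the cultures and 372 ± 81.3 in injured cortex; SD, n = 3), was not called, at 0.69 ± 0.31 (adjusted p = 0.076), -0.19 ± 0.30 (adjusted p = 0.595) and -0.89 ± 0.31 (adjusted p = 0.0828). Without injured replicate 2 it was called higher in the cultures than in injured cortex (0.89, adjusted p = 0.0426). The pseudogene Gstm2-ps1, 46.9% of whose 50-base words also occur in other genes, mainly Gstm1, was not called either. Gstm4 was higher in the cultures than in uninjured cortex by 0.88 (adjusted p = 0.00746; 0.214 without uninjured replicates 2 and 3). Summed over the 8 mu class genes, levels were 797 to 1207 CPM in the cultures, 776 to 1013 CPM in injured cortex and 1598 to 2337 CPM in uninjured cortex. The astrocyte, oligodendrocyte and microglia marker sums given above were also lowest in the cultures, and their part in the falls of Gstm5, Gstm6, Gstm7, Prdx6 and Sod3 was not tested.

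**Figure D5:**
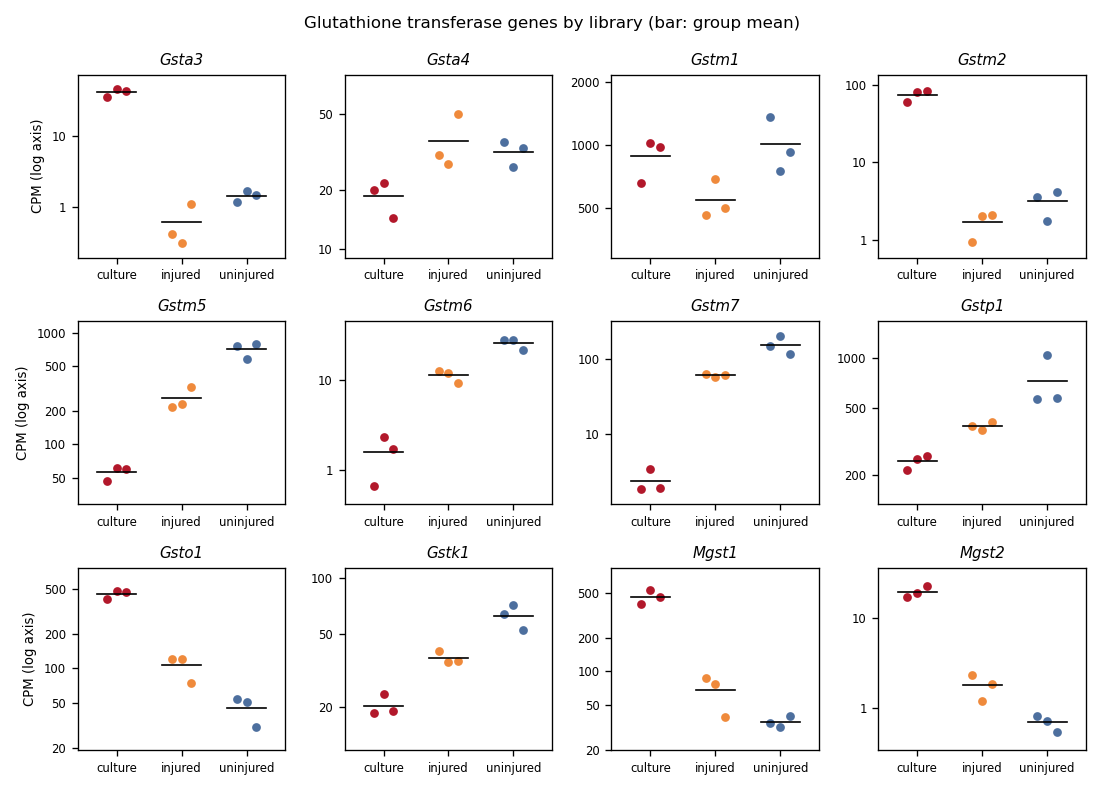
Levels (CPM, log axis) of 12 glutathione transferase genes in each library: cultures, injured cortex and uninjured cortex from left to right, with a point for each library and a bar for the group mean. Gsta3 and Gstm2 are high in the cultures, Gstm5, Gstm6, Gstm7 and Gstk1 climb over the 3 groups, and Gsto1 and Mgst2 descend.

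The microsomal transferases, membrane proteins of which some also act as peroxidases, were all 3 higher in the cultures. Mgst1 changed by 2.77 and 3.70, Mgst2 by 3.44 and 4.81, and Mgst3 by 2.12 and 1.93 against injured and uninjured cortex, with adjusted p of at most 1.85e-05. Mgst2 was also higher in injured than in uninjured cortex (1.36 ± 0.35, adjusted p = 0.0234), a call lost without injured replicate 1 or uninjured replicate 2 or 3 (from 0.0828 to 0.113). Mgst1 reached 0.93 ± 0.28 (adjusted p = 0.052) there, and was called without injured replicate 3 (1.19, adjusted p = 0.00127). Gsto1, an omega class enzyme with thiol transferase activity, averaged 452 ± 40.5 CPM in the cultures, 106 ± 27.1 CPM in injured cortex and 45.1 ± 12.8 CPM in uninjured cortex (SD, n = 3). It was higher in every comparison, by 2.09 ± 0.28 (adjusted p = 8.18e-05), 3.33 ± 0.29 (adjusted p = 1.87e-06) and 1.23 ± 0.27 (adjusted p = 0.0121). The last call was lost without injured replicate 1 (0.0726), uninjured replicate 3 (0.0536) or uninjured replicates 2 and 3 (0.287). Gstk1, the kappa class enzyme of mitochondria and peroxisomes, had 18.6, 23.4 and 19.1 CPM in the cultures, 40.2, 35.1 and 35.5 CPM in injured cortex and 63.7, 71.5 and 52.3 CPM in uninjured cortex. It moved in the opposite order, lowest in the cultures, with -0.86 ± 0.20 (adjusted p = 0.00333), -1.62 ± 0.20 (adjusted p = 2.66e-05) and -0.76 ± 0.19 (adjusted p = 0.0241). Its injury call was lost without injured replicate 1 or 2 or uninjured replicate 1 or 2 (from 0.0551 to 0.103) and without uninjured replicates 2 and 3 (0.199).

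The pi class gene Gstp1, a transferase with a known role in drug and electrophile clearance, had 216, 249 and 262 CPM in the cultures, 392, 373 and 417 CPM in injured cortex and 566, 1034 and 574 CPM in uninjured cortex. The cultures were lowest and uninjured cortex highest, without overlap, at -0.70 ± 0.27 (adjusted p = 0.0477), -1.58 ± 0.28 (adjusted p = 0.000414) and -0.88 ± 0.27 (adjusted p = 0.0555). The call against injured cortex was lost on leaving out any culture or injured library (adjusted p from 0.0624 to 0.146), and with DESeq2 scaling (0.0617). The injury difference was called without injured replicate 3 (-0.94, adjusted p = 0.03) or uninjured replicate 1 (-1.02, adjusted p = 0.0432). Of its 50-base words 33.7% occur in another gene, and of those of Gstp2 54.3%, so reads may have been split between them. Gstp2 and Gstp3 were at most 2.38 CPM in any library and were not called. The theta class gene Gstt1 had 6.74, 7.86 and 7.19 CPM in the cultures, 21.9, 9.78 and 11.9 CPM in injured cortex and 15.5, 10.9 and 14.6 CPM in uninjured cortex. Injured replicate 1 was the highest and the cultures were lowest, with -1.00 ± 0.31 (adjusted p = 0.0196), -0.91 ± 0.31 (adjusted p = 0.0248) and 0.09 ± 0.31 (adjusted p = 0.891). Against injured cortex its call was lost without culture replicate 1 or 3 or injured replicate 1 (from 0.0594 to 0.124), where the change without injured replicate 1 was -0.57. Against uninjured cortex it was lost without any culture, without uninjured replicate 1 or 3 (from 0.0539 to 0.0767) and without uninjured replicates 2 and 3 (0.0723). Gstt3 was higher in the cultures by 0.97 and 0.84 (adjusted p = 0.00763 and 0.0132; the second lost without uninjured replicate 2, 0.0536, or replicates 2 and 3, 0.15), and Gstt2 was not called. Gstz1, a zeta class enzyme of tyrosine breakdown, was lower in the cultures, at -0.50 and -0.76 (adjusted p = 0.0496 and 0.00515). The first of these was lost on leaving out any library (from 0.0514 to 0.171). Gsto2 was not called.

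The 8 genes with too few counts to test were Gsta1, Gsta2, Gsta5, Gstm3, Gstt4, Gpx2, Gpx5 and Gpx6. Gsta1 had 3, 7 and 10 counts in the injured libraries and at most 2 in any other, and Gsta2 had 11, 9 and 11 counts in injured cortex and at most 3 elsewhere. Their sequences overlap, with 90.5% of the 50-base words of Gsta1 and 49.8% of those of Gsta2 found in another gene, so these counts cannot be assigned firmly. Gpx5, a secreted peroxidase of the epididymis, had 17 and 15 counts in uninjured replicates 2 and 3 and 0 in the other 7 libraries, the same pair of libraries that held reads at olfactory and vomeronasal receptor genes. Gstm3 had 7 counts in uninjured replicate 2 and at most 1 elsewhere. Totals over all 9 libraries were 9 for Gpx6, 8 for Gstt4, 4 for Gsta5 and 3 for Gpx2. At these depths 3 counts correspond to 0.102 to 0.234 CPM in a library.

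Genes that act beside the antioxidant systems were examined in lists. Their counts stand beside the shares of all genes tested: 20.0% higher and 30.1% lower in cultures against injured cortex, 27.5% and 33.1% against uninjured cortex, and 8.99% and 2.87% in injured against uninjured cortex. Of 8 genes listed for the supply of NADPH, the reductant used by Gsr, Txnrd1 and Nqo1, 5 were higher and 0 lower in the cultures against injured cortex, and 6 and 0 against uninjured cortex. The list includes Taldo1 and Tkt, enzymes of the pentose phosphate pathway that do not make NADPH themselves. Taldo1 was among the genes called higher in both comparisons, and Tkt only against uninjured cortex. The list's median log2 fold change was 1.08 and 1.22, beside -0.19 and -0.17 for all genes. Pgd of the pentose phosphate pathway rose by 2.04 and 3.05 (adjusted p = 2.39e-05 and 8.29e-07), and its first enzyme G6pdx by 1.32 and 2.05 (0.00581 and 0.000259). Transaldolase (Taldo1) rose by 1.04 and 1.24 (adjusted p = 0.00643 and 0.00164), malic enzyme Me1 by 1.13 and 2.03 (0.00361 and 5.11e-05) and Idh1 by 1.13 and 1.20 (0.00339 and 0.00165). In injured against uninjured cortex Pgd (1.00, adjusted p = 0.0135) and Me1 (0.89, adjusted p = 0.0458) were higher, 2 of 8, and 0 without uninjured replicates 2 and 3. The call of Pgd was also lost without injured replicate 1 or uninjured replicate 2 (0.0837 to 0.0946) and that of Me1 without any culture library, injured replicate 1 or 3 or any uninjured library (0.0501 to 0.176). Without uninjured replicates 2 and 3, Taldo1 and Idh1 were among the listed genes that lost their calls in the cultures against uninjured cortex. Nnt, a mitochondrial source of NADPH that is known to carry a deletion in C57BL/6J mice, was at 0.313 to 1.29 CPM in every library.

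Of 16 other NRF2 target genes tested, 11 were higher and 0 lower in the cultures in both comparisons, with medians of 1.50 against injured and 1.46 against uninjured cortex. Hmox1, the enzyme that degrades heme, had 3501, 2652 and 2185 CPM in the cultures, 292, 249 and 150.4 CPM in injured cortex and 36.0, 15.8 and 8.16 CPM in uninjured cortex. The 3 groups were separate by wide margins, with 3.59 ± 0.51 (adjusted p = 0.000124), 7.12 ± 0.60 (adjusted p = 1.28e-06) and, for injured against uninjured cortex, 3.53 ± 0.51 (adjusted p = 0.000868). Akr1b8, an aldo-keto reductase, was higher by 4.35, 6.35 and 2.00 in those comparisons (adjusted p = 1.08e-07, 2.26e-08 and 0.000259). Blvrb, a biliverdin reductase, was higher in the cultures by 2.62 and 3.21 (adjusted p = 1.68e-06 and 2.5e-07). Trim16, a ubiquitin ligase, was higher by 2.62 and 3.22 (adjusted p = 9.91e-05 and 1.69e-05), and Ugdh, which makes the sugar nucleotide used in glucuronidation, by 1.53 and 2.79 (0.00117 and 1.21e-05). Between injured and uninjured cortex 3 of the 16 were higher and 0 lower: Hmox1, Akr1b8 and Ugdh (1.26, adjusted p = 0.0162), and 2 without uninjured replicates 2 and 3. The call of Ugdh was also lost without injured replicate 1 or uninjured replicate 2 or 3 (0.063 to 0.0873). Hmox1 is known to be high in macrophages. Of the macrophage and monocyte markers given above, Lyz2 and Ms4a7 had the same order of groups, whereas Ccr2 and Ly6c2 were highest in injured cortex. Mrc1 was lowest in injured cortex, at 7.84 CPM on average, against 41.5 CPM in the cultures and 12.7 CPM in uninjured cortex. F13a1 was not called between cultures and injured cortex. The part of macrophages and monocytes in the Hmox1 changes was not tested.

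The 13 other genes of glutathione metabolism did not share a direction: 4 were higher and 6 lower in the cultures against injured cortex, and 3 and 9 against uninjured cortex, with medians of -0.56 and -0.84. Those lower included the gamma-glutamyl transferases, which break glutathione down outside the cell. Ggt5 changed by -2.47 and -3.28 (adjusted p = 1.49e-05 and 1.11e-06) and Ggt1 by -3.04 and -4.03 (3.47e-05 and 2.48e-06). Those higher included Esd, which completes the glutathione-dependent clearance of formaldehyde (3.61 and 4.62, adjusted p = 1.42e-06 and 1.83e-07), the peptidase Anpep (4.62 and 3.86, 1.64e-05 and 3.21e-05) and Chac1, which degrades glutathione inside the cell (1.81 and 4.56, 0.0121 and 6.2e-05). Its relative Chac2 was higher against injured cortex only in part of the fits (0.63, adjusted p = 0.04; lost without culture replicate 1 or 2, any injured library or uninjured replicate 2, 0.0533 to 0.19), and Chac1 lost its call there without culture replicate 3 (0.0546). In injured against uninjured cortex Chac1 (2.74, adjusted p = 0.0117) and Esd (1.01, 0.0272) were higher and Ggt5 lower (-0.81, 0.0478). Of the 13, 0 were called in either direction without uninjured replicates 2 and 3. Those calls were also lost for Chac1 without injured replicate 1 or uninjured replicate 2 (0.0547 to 0.0641), for Esd without injured replicate 1 or 2 or any uninjured library (0.0642 to 0.16) and for Ggt5 without any culture library, any injured library or uninjured replicate 2 or 3 (0.0505 to 0.161).

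Of 17 glutaredoxin, thioredoxin-like, methionine sulfoxide reductase and sestrin genes, 8 were higher and 2 lower against injured cortex, and 10 and 3 against uninjured cortex. Glrx, which removes glutathione from proteins, had 519, 531 and 381 CPM in the cultures, 112, 113 and 47.0 CPM in injured cortex and 29.4, 20.4 and 15.3 CPM in uninjured cortex. It followed the order cultures, injured, uninjured, with 2.40 ± 0.36 (adjusted p = 0.000186), 4.46 ± 0.39 (adjusted p = 1.81e-06) and 2.06 ± 0.35 (adjusted p = 0.00271). Msrb3, a methionine sulfoxide reductase, was higher in the cultures by 3.76 and 3.64 (adjusted p = 1.17e-05 and 9.14e-06). The thioredoxin-like genes Txndc5 (1.73 and 2.17) and Txndc17 (1.48 and 2.03) were higher too, with adjusted p of at most 0.000273. Txnip, which binds and inhibits thioredoxin, went against the list: it was lower in the cultures, at -1.04 and -2.07 (adjusted p = 0.00451 and 2.66e-05) and lower in injured than in uninjured cortex at -1.04 (0.017). The sestrin Sesn3 was lower in the cultures as well (-1.93 and -2.11, adjusted p = 0.0131 and 0.00673), as was Msrb2 against uninjured cortex (-0.93, 0.00875). The call of Sesn3 against injured cortex was lost without culture replicate 1 or 2 or injured replicate 3 (0.0511 to 0.0639), and that against uninjured cortex without uninjured replicates 2 and 3 (0.22). Between injured and uninjured cortex 2 of the 17 were higher, Glrx and Sesn2 (1.46, adjusted p = 0.0452), and 1 lower, Txnip, and none of these calls held without uninjured replicates 2 and 3 (0.164, 0.582 and 0.426). That of Sesn2 was also lost without any culture library, injured replicate 1 or 3 or uninjured replicate 2 or 3 (0.0535 to 0.163) and that of Txnip without injured replicate 2 or uninjured replicate 2 (0.0574 to 0.0793).

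Enzymes that produce oxidants had calls in both directions. Of 11 tested, 4 were higher and 3 lower in the cultures against injured cortex, 7 and 3 against uninjured cortex, and 5 and 0 in injured against uninjured cortex (1 and 0 without uninjured replicates 2 and 3). The share of the list called lower against injured cortex was near the 30.1% of all genes. Cybb, the catalytic subunit of the phagocyte NADPH oxidase, had 503, 509 and 446 CPM in the cultures, 210.5, 129 and 57.1 CPM in injured cortex and 6.51, 11.1 and 9.14 CPM in uninjured cortex. Its groups were separate, with 1.88 ± 0.39 (adjusted p = 0.00177), 5.77 ± 0.46 (adjusted p = 8.53e-07) and, for injured against uninjured cortex, 3.89 ± 0.42 (adjusted p = 0.000145). Its cytosolic partner Ncf1 did otherwise, at -1.10 in cultures against injured cortex (adjusted p = 0.00141), -0.26 against uninjured cortex (0.302) and 0.83 in injured against uninjured cortex (0.0264). The oxidase subunits Rac2 (1.92, adjusted p = 0.0039) and Ncf4 (1.49, 0.0217) were higher in injured cortex, and Cyba was higher in the cultures (1.33 and 2.24, 0.0115 and 0.000372). The injury call of Ncf1 was lost without injured replicate 1 or 2 or uninjured replicate 1 or 3 (0.0697 to 0.138) and that of Ncf4 without injured replicate 1 or 2 or uninjured replicate 2 or 3 (0.0746 to 0.105). Without uninjured replicates 2 and 3, Cybb alone kept its injury call. Nox4, an oxidase that is always active, was at most 2.02 CPM in any library and higher in the cultures (3.96 and 2.77, 0.00107 and 0.00456). Against the list, aldehyde oxidase Aox1 was lower in the cultures (-1.71 and -2.79, 0.0295 and 0.00174), the first lost without any culture library or injured replicate 3 (0.0592 to 0.209). Nos2, the inducible nitric oxide synthase, was at most 0.548 CPM and was called lower against uninjured cortex (-2.64, 0.025; lost without culture replicate 2 or 3 or uninjured replicate 3, 0.0728 to 0.102). Mpo, the neutrophil myeloperoxidase, was at 0 in all cultures, at 0.544 to 5.23 CPM in injured cortex and at 0, 4.27 and 0.183 CPM in uninjured cortex, and was called lower in the cultures in both comparisons. Its call against injured cortex was lost without culture replicate 1 (0.05) and that against uninjured cortex without any culture library or uninjured replicate 2 (0.0524 to 0.206). Aox1, Nos2 and Mpo all lost their calls against uninjured cortex without uninjured replicates 2 and 3. Xdh, xanthine dehydrogenase, was higher in all 3 comparisons, by 2.25, 4.35 and 2.10 (adjusted p = 0.00116, 1.22e-05 and 0.0101). Of 9 genes of selenoprotein synthesis, which Gpx1 to Gpx4 and the thioredoxin reductases need, 2 were higher and 2 lower in the cultures in both comparisons, beside the 20.0% higher and 30.1% lower of all genes against injured cortex given above. The selenophosphate synthetases Sephs1 and Sephs2 were higher, Sephs1 by 1.10 and 1.58 (adjusted p = 0.000941 and 4.76e-05) and Sephs2 by 0.81 and 1.54 (adjusted p = 0.00589 and 5.35e-05). The selenium carrier Selenop, itself a secreted protein, was lower, at -1.78 and -1.91 (0.00155 and 0.000686). Secisbp2, which guides selenocysteine into proteins, was lower too, at -0.71 and -0.69 (0.00937 and 0.00898). Selenop and Secisbp2 did not both keep the call against uninjured cortex without uninjured replicates 2 and 3. Sephs2 was the gene called in injured against uninjured cortex, at 0.74 (0.0352; lost without culture replicate 2 or 3, injured replicate 1 or 2 or uninjured replicate 2 or 3, 0.059 to 0.147), and 0 of the 9 were called without uninjured replicates 2 and 3.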

How the data were processed

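Polyadenylated RNA was measured in 9 libraries, grouped by the sample labels. The authors deposited 1 table of raw counts per gene. The submitters' processing notes name HISAT2 and GRCm39, without versions; how reads were counted, with which annotation and whether by strand, is not given in the sources used here. Reads of overlapping or antisense genes can therefore not be told apart.

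The analysis used edgeR 4.0.16 under R 4.3.3. Genes passing filterByExpr at its defaults (18093) were scaled by the trimmed mean of M values and fitted with a mean for each group by the quasi-likelihood test with 6 residual degrees of freedom. P-values were adjusted over all genes tested (Benjamini-Hochberg) and calls made under 0.05. Alternatives used DESeq2 1.42.0 and limma 3.58.1. Scripts were tested on simulated data. The members and gene lists were chosen with earlier results of these data known. Values per library are given for a fixed panel of 18 members and for the 6 highest and 6 lowest called members per comparison with a mean of at least 10 CPM. From each list, genes with the smallest adjusted p are named, up to 4, with called genes against the list's main direction; Nnt was chosen after its values were seen. Sequence shared between genes was counted in 50-base words of the GENCODE vM21 exons (GRCm38), which also gave the lengths per kilobase. Promoter windows came from RefSeq.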

Additional observations from a re-analysis of the deposited data

How the results depend on the processing

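Directions of the members held under every alternative tried: no member's called change turned its sign. In cultures against injured cortex 28 of 37 calls, and against uninjured cortex 34 of 38, passed every alternative planned (28 and 30 with uninjured replicates 2 and 3 also left out, which was chosen after seeing the data). In injured against uninjured cortex 6 of 15 did, and 2 with that removal, which leaves uninjured replicate 1 alone, assumed to vary like the other groups. Members called lower in injured than in uninjured cortex, 5 in the report, were 9 with upper-quartile factors, 10 with the DESeq2 Wald test, 8 with a filter of 1 CPM in 3 libraries and 3 in a fit of those groups alone. Without uninjured replicates 2 and 3 there were 1 higher and 1 lower. On leaving out 1 library at a time, the counts ranged from 22 to 28 higher and 6 to 10 lower in cultures against injured cortex, from 26 to 28 and 8 to 11 against uninjured cortex, and from 4 to 13 and 2 to 9 in injured against uninjured cortex. Over all genes the last comparison had 1626 higher and 519 lower, with 855 to 2424 and 119 to 1678 on leaving out 1 library, 1041 to 2249 and 328 to 1247 under the other alternatives, and 420 and 42 without uninjured replicates 2 and 3. The cause of these shifts was not tested.

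Apart from libraries left out, calls were lost with no filter on low counts (Gstp1, Prdx2, Gss and Gstz1 in cultures against injured cortex, Gpx8 and Gstk1 in injured against uninjured cortex), in the fit of 2 groups alone (Srxn1, Prdx4, Gpx8, Gstk1 and Mgst2, injured against uninjured cortex), with limma-voom (Gstz1 and Mgst2 in those comparisons), with DESeq2 size factors (Gstp1, Gstz1, Sod2 and Prdx4), with the other scalings (Sod2 and Prdx4) and with the Wald test (Gstz1), at adjusted p from 0.0514 to 0.15. Sod3, not called between injured and uninjured cortex, was called under 4 alternatives (adjusted p from 0.0239 to 0.0487), 1 of them the replicate block.

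Upper-quartile scaling moved the median of all genes by -0.20 in cultures against uninjured cortex and by -0.12 in injured against uninjured cortex. In injured against uninjured cortex the higher share of the members' calls was 66.7% in the report, 56.2% with DESeq2 size factors and 50% with upper-quartile factors, and of all genes' calls 75.8% and 64% with upper-quartile factors. Counts for the gene lists moved by over 1.5 times in 93 of 798 list counts recomputed, 77 of them in injured against uninjured cortex. With the replicate number as a block, 27 members were higher and 9 lower in cultures against injured cortex, 29 and 10 against uninjured cortex, and 10 and 6 in injured against uninjured cortex. The labels name no pairing by that number. Deviations from the group means of same-numbered libraries correlated at -0.13 to 0.41 over 9 pairs, with 4 over 0.1. Libraries of unlike number correlated at -0.37 to 0.35 over 18 pairs, with 5 over 0.1. The best partner in another group had the same number in 8 of 18 cases. With 3 libraries a group, these values cannot decide whether the numbers mark pairs. Depth limits the 8 members not tested and, with 3 libraries a group, small changes.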
